A study of Homo sapiens with 2 samples.

Results

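The genes described here are 10 transcription factors of Merkel cells and neuroendocrine cells, ATOH1, NEUROD1, NHLH1, HES6, SOX2, SOX3, POU4F3, ISL1, INSM1 and GFI1. They were taken by name, and all 10 were among the 32742 genes of the deposited table. The cells were WaGa, an established Merkel cell carcinoma line that grows in suspension, profiled with droplet single-cell RNA sequencing that counts unique molecular identifiers (UMIs) at the 3′ end of transcripts. One library came from cells treated with domatinostat, an inhibitor of histone deacetylases that was dissolved in DMSO, and 1 came from cells with no treatment. The labels gave no dose and no duration, did not say whether the untreated cells received DMSO, and named 1 cell line with 1 library for each condition, so no difference between the libraries had a replicate check. Cells were assigned by the treatment word in their names, and each library goes by its label, because CDKN1A, a cell cycle inhibitor that inhibitors of histone deacetylases are known to induce, went against the labels, with 39.4 counts per 1000000 UMIs of the library (CPM) in the library labelled treated and 97.9 CPM in the library labelled untreated.

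Merkel cells are touch-sensitive cells of the epidermis that combine keratins with a neuroendocrine secretory programme. In mouse skin their fate depends on ATOH1, a proneural factor of the basic helix-loop-helix (bHLH) class, and SOX2, ISL1, POU4F3, INSM1 and GFI1 belong to the same network there and in inner ear hair cells. Proneural bHLH factors bind E-boxes as dimers with E proteins; ID proteins sequester the E proteins, and Notch signalling acts through HES1 and related repressors to hold proneural genes down. In many developing neural tissues these factors are tied to exit from the cell cycle, while a Merkel cell carcinoma line expresses them as it divides.

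Depth was 60160108 UMIs over 6679 cells labelled treated, at a median of 8578 per cell, and 45562976 UMIs over 4137 cells labelled untreated, at a median of 11125. Because depth differed, shares of cells and relations between genes were taken from cells thinned to 4351 UMIs each, which kept 6012 cells labelled treated and 3892 labelled untreated. All 8 of 8 Merkel cell markers were measured, with a summed 2636 CPM in the library labelled treated and 2890 CPM in the library labelled untreated, and markers of 8 other cell types were read in the same way. The keratinocyte list summed to 358.8 and 403.4 CPM, most of it from KRT10, followed by SFN at 42.9 and 88.3 CPM, with TP63 at 0. The fibroblast list summed to 18.0 and 29.3 CPM, mostly DCN at 16.7 and 25.2 CPM, with COL3A1 at 0, and the B cell list to 4.49 and 9.88 CPM from CD79A and CD79B, with MS4A1 at 0. The endothelial list summed to 6.60 and 6.56 CPM, nearly all from CLDN5, with CDH5 at 0, and the melanocyte list to 0.981 and 4.70 CPM, of which PMEL gave 0.349 and 3.09, with TYR at 0. The myeloid, erythroid and T cell lists were at or below 2.98 CPM. Their part in the differences between the libraries was not tested. The libraries had 48 cell barcodes in common. All intervals below are exact 95% intervals that cover counting error only, and the amount of free RNA in droplets could not be measured, as every cell was of 1 line.

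The sequence upstream of 4 of the factors is shown here because the results turn on them: HES6 and NHLH1 had the highest r among cells, and SOX2 and SOX3, close relatives by sequence, had different courses over the cell cycle. Each window runs from 250 bases before to 50 bases after a RefSeq gene start on GRCh38.p14, read 5′ to 3′ on the gene's strand. Capitals mark matches to the E-box CANNTG, the site class of bHLH dimers, and to ATGCAAAT, the octamer bound by factors of the POU class, searched on both strands. The windows are HES6 at chr2:238239989-238240288 on the minus strand, NHLH1 at chr1:160366821-160367120 on the plus strand, SOX2 at chr3:181711675-181711974 on the plus strand and SOX3 at chrX:140505020-140505319 on the minus strand.
HES6: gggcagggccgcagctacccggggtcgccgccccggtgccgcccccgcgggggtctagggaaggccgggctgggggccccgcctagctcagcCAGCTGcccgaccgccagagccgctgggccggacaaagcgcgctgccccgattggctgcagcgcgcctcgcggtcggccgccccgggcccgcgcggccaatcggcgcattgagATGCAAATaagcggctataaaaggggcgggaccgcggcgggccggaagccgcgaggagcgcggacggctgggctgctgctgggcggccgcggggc
NHLH1: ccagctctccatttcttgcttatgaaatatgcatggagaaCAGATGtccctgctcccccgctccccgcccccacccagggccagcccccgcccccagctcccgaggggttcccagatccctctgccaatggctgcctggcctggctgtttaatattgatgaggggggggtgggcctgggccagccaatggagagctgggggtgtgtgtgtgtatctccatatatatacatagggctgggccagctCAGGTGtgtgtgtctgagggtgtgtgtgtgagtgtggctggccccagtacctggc
SOX2: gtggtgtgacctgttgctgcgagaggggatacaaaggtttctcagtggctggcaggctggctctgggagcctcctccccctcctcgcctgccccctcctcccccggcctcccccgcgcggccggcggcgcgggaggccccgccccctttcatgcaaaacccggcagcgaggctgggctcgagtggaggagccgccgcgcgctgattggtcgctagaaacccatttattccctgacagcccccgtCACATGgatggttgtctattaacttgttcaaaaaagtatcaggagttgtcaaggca
SOX3: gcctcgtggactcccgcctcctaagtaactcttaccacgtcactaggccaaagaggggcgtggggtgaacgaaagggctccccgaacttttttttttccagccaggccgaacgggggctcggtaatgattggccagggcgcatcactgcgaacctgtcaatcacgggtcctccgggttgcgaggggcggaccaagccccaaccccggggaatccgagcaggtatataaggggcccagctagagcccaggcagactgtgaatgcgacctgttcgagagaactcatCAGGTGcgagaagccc

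The HES6 window held an E-box that begins 158 bases before the start and an octamer 45 bases before it. NHLH1 held 2 E-boxes, the nearer one 5 bases before the start, SOX2 held 1 at 6 bases before the start and SOX3 held 1 that begins 34 bases after it. An E-box occurred in 68.7% of all 35116 RefSeq windows of this length and the octamer in 1.77%, so the octamer is the rarer feature, and HES6 was the only factor with one among the 9 factors that had a window. A match describes letters only. INSM1 had no window in the table.

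Only SOX2 reached a 1.5-fold difference between the libraries among the factors with enough UMIs to call, and it was higher in the library labelled treated. NHLH1, a neuronal bHLH factor, lay just below that fold in the same direction, ISL1 was 1.20-fold higher, SOX3 was lower, and HES6, INSM1, GFI1, ATOH1 and POU4F3 differed by less than 1.2-fold either way. Of 9 factors with at least 100 UMIs over both libraries, 1 was at least 1.5-fold higher and 0 were lower, where 3.17% of all 12812 genes with that many UMIs were higher and 12.2% were lower. At 2-fold it was 0 factors either way, against 0.468% of genes higher and 5.94% lower. The factors' median log2 ratio was 0.04, against -0.01 for all genes. One called factor of 9 does not set the group apart from that background.

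Among the bHLH factors, HES6 was carried by nearly every cell. HES6 is a divergent HES protein that opposes HES1 and favours neuronal differentiation in mouse and frog embryos. It had 233532 UMIs or 3882 CPM in the library labelled treated and 203114 UMIs or 4458 CPM in the library labelled untreated. The ratio was 0.871 (0.866 to 0.876). These 3′ tag counts do not scale with transcript length, and 26 genes had a higher CPM in the library labelled treated and 16 in the library labelled untreated. In thinned cells the median was 16 HES6 UMIs per cell labelled treated and 17 per cell labelled untreated, but the spread differed. The 90th percentile was 28 UMIs in cells labelled treated and 36 in cells labelled untreated, the richest thinned cell had 88 and 146, and the variance was 3.94 and 8.95 times the mean. Cells very rich in HES6 were thus more frequent in the library labelled untreated.

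NHLH1 had 10030 UMIs or 166.7 CPM in the library labelled treated, against 5258 UMIs or 115.4 CPM in the library labelled untreated, a ratio of 1.44 (1.40 to 1.49). It was detected in 49.0% of thinned cells labelled treated and 35.4% of those labelled untreated, and in 68.6% and 58.0% of cells before thinning. ATOH1, the proneural factor at the head of the Merkel cell programme, was scarce: 388 UMIs or 6.45 CPM in the library labelled treated and 289 UMIs or 6.34 CPM in the library labelled untreated, with a ratio of 1.02 (0.871 to 1.19). It was seen in 2.88% of thinned cells labelled treated and 2.95% of those labelled untreated, and no cell had more than 2 ATOH1 UMIs. At this depth a difference of up to 1.19-fold in ATOH1 lay within counting error.

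NEUROD1, a bHLH factor of neurons and endocrine cells, had 7 UMIs in the library labelled treated and 19 in the library labelled untreated. That is too few to call; the ratio was 0.279 (0.099 to 0.693), where 48.2% of the 4027 genes with 10 to 99 UMIs were at least 1.5-fold lower and 14.6% higher. Of the 4 bHLH factors, HES6 and NHLH1 thus gave nearly all the UMIs in both libraries.

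SOX2 and SOX3 are SOXB1 factors that keep neural progenitors undifferentiated, and SOX2 is also needed for Merkel cell maturation in mice. SOX2 had 7917 UMIs or 131.6 CPM in the library labelled treated, against 3812 UMIs or 83.7 CPM in the library labelled untreated. The ratio was 1.57 (1.51 to 1.64), above that of 97.8% of genes called on, and SOX2 was detected in 38.8% of thinned cells labelled treated and 26.1% of those labelled untreated. The call rests on the margin: with each cell weighted equally the log2 ratio was 0.58 in place of 0.65, and with the 3 cell cycle phases weighted equally it was 0.35, both under 1.5-fold. SOX3 had 1960 UMIs or 32.6 CPM in the library labelled treated, against 2003 UMIs or 44.0 CPM in the library labelled untreated, a ratio of 0.741 (0.696 to 0.789). SOX3 was detected in 12.3% and 16.98% of thinned cells. The closely related SOX genes thus stood on opposite sides of 1, with intervals far apart.

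POU4F3, a POU-homeodomain factor that opens chromatin with ATOH1 in mouse Merkel cells, had 580 UMIs or 9.64 CPM in the library labelled treated and 428 UMIs or 9.39 CPM in the library labelled untreated. Its ratio was 1.03 (0.904 to 1.17), and 3.89% and 4.01% of thinned cells had a POU4F3 UMI. ISL1, a LIM-homeodomain factor of sensory and neuroendocrine cells, had 16260 UMIs or 270.3 CPM in the library labelled treated, against 10285 UMIs or 225.7 CPM in the library labelled untreated. Its ratio was 1.20 (1.17 to 1.23), with ISL1 found in 66.8% and 57.8% of thinned cells. Of the homeodomain factors, POU4F3 thus had an interval that included 1 and ISL1 lay modestly above it.

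INSM1 and GFI1 are zinc finger repressors whose SNAG domain recruits the LSD1-CoREST complex, which contains histone deacetylases. INSM1 had 10374 UMIs or 172.4 CPM in the library labelled treated and 7265 UMIs or 159.5 CPM in the library labelled untreated, a ratio of 1.08 (1.05 to 1.12). It was found in 50.6% and 47.5% of thinned cells. GFI1 had 3277 UMIs or 54.5 CPM in the library labelled treated and 2625 UMIs or 57.6 CPM in the library labelled untreated, a ratio of 0.945 (0.898 to 0.996), and was found in 20.6% and 22.0% of thinned cells. Whole-library levels of both SNAG factors were within 1.1-fold of each other in the 2 libraries; the level of INSM1 by cell cycle phase, given further on, was not.

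**Figure D1:**
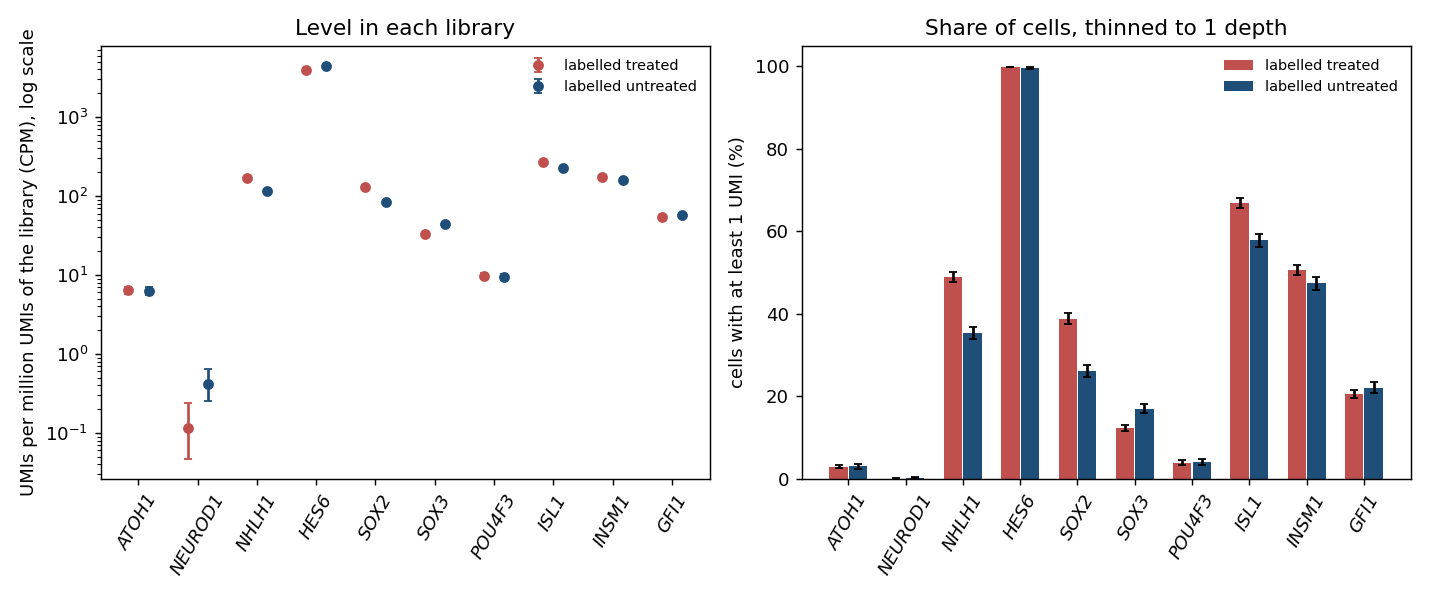
CPM of each factor on a log axis (left) and the share of cells, thinned to 4351 UMIs, with at least 1 UMI of it (right), in the library labelled treated and the library labelled untreated; bars are exact 95% intervals for counting error, with 1 library each. SOX2 and NHLH1 had higher shares in the library labelled treated (38.8% against 26.1% and 49.0% against 35.4%), SOX3 a lower one (12.3% against 16.98%), and HES6 was found in nearly all cells of both.

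The cell cycle was read from S phase and G2/M gene scores, with both libraries scored together and the 10 factors kept out of the scoring. In the library labelled treated 6.04% of thinned cells were called G1, 53.0% S and 41.0% G2/M; in the library labelled untreated 9.71% were called G1, 59.1% S and 31.2% G2/M. These calls rest on scores alone, and with each library scored alone G1 took 9.43% and 11.9%. Within each library, levels in G1, S and G2/M cells were compared. All 9 factors in the library labelled untreated, and all but INSM1 in the library labelled treated, had their highest level in G1 cells. In the library labelled treated 3 of 9 factors, NHLH1, SOX3 and POU4F3, were at least 1.5-fold lower in G2/M than in G1 cells and 0 were higher, where 6.45% of genes measured were lower and 13.9% higher. In the library labelled untreated 6 of 9, the same 3 with ATOH1, SOX2 and ISL1, were lower and 0 higher, where 7.55% of genes were lower and 13.2% higher. The POU4F3 call was lost, with log2 ratios of -0.52 and -0.46 in place of -0.68, when each library was scored alone and when phases were called at the median depth, and under the second ATOH1 passed at -0.72. The share of factors lower in G2/M was thus above that of all genes in both libraries. Between G1 and S cells, NHLH1, SOX2 and POU4F3 were at least 1.5-fold lower in S cells labelled treated, where 3.65% of genes were lower and 11.7% higher, and these with ATOH1 and INSM1 were lower in S cells labelled untreated, where 7.91% were lower and 14.8% higher. Between S and G2/M cells INSM1 was higher and NHLH1 and SOX3 lower in G2/M in the library labelled treated, where 8.26% of genes were higher and 8.37% lower, and SOX3 was lower in the library labelled untreated, where 12.4% were higher and 13.6% lower.

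NHLH1 and SOX3 were the factors with the steepest decline from G1 to G2/M cells, but by different routes. NHLH1 had 369.3, 187.1 and 119.0 CPM in G1, S and G2/M cells labelled treated, and 260.6, 108.9 and 91.5 CPM in those labelled untreated. Its G2/M to G1 ratio was 0.322 (0.300 to 0.346) in the library labelled treated and 0.351 (0.323 to 0.382) in the library labelled untreated, and most of the difference was already present in S. SOX3 had 51.7, 45.4 and 16.1 CPM in G1, S and G2/M cells labelled treated, and 68.0, 55.6 and 21.4 CPM in those labelled untreated. Its S to G1 ratio was 0.878 (0.737 to 1.05) and 0.818 (0.710 to 0.945), whereas its G2/M to S ratio was 0.354 (0.317 to 0.396) and 0.384 (0.341 to 0.432). SOX3 was therefore near its G1 level in S cells and far lower in G2/M cells, in both libraries.

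SOX2 had a trough in S instead. It had 172.7, 106.2 and 155.6 CPM in G1, S and G2/M cells labelled treated, and 187.8, 66.1 and 87.4 CPM in those labelled untreated. The S to G1 ratio was 0.615 (0.558 to 0.679) in the library labelled treated and 0.352 (0.321 to 0.386) in the library labelled untreated, and the G2/M to S ratio was 1.46 (1.40 to 1.54) and 1.32 (1.23 to 1.42). Among G2/M cells SOX2 had come back to 0.901 (0.819 to 0.994) of its G1 level in the library labelled treated and to 0.465 (0.423 to 0.512) in the library labelled untreated. The direction of the steps was shared by the libraries and their depth was not.

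INSM1 had the same trough but ended on the other side of G1 in the 2 libraries. It had 155.0, 133.0 and 217.5 CPM in G1, S and G2/M cells labelled treated, and 248.0, 136.6 and 174.5 CPM in those labelled untreated. The G2/M to S ratio was 1.63 (1.57 to 1.70) and 1.28 (1.21 to 1.34), above 1 in both libraries. The G2/M to G1 ratio was 1.40 (1.27 to 1.55) in the library labelled treated and 0.704 (0.651 to 0.761) in the library labelled untreated. The S cells of the libraries had like INSM1 levels; the G1 cells and the G2/M cells did not.

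HES6, ISL1 and GFI1 varied less. HES6 had 5190, 3698 and 3912 CPM in G1, S and G2/M cells labelled treated, and 5913, 4077 and 4730 CPM in those labelled untreated, so that S was again lowest. ISL1 had 351.6, 266.3 and 264.5 CPM in G1, S and G2/M cells labelled treated, and 334.4, 223.2 and 204.7 CPM in those labelled untreated. GFI1 was the flattest, with 63.5, 55.5 and 52.3 CPM in cells labelled treated and 72.5, 56.96 and 55.4 CPM in those labelled untreated. For ATOH1 and POU4F3 the G1 cells held only 22 and 39 UMIs in the library labelled treated and 33 and 55 in the library labelled untreated, and the G2/M to G1 ratio of ATOH1, 0.746 (0.476 to 1.22) and 0.589 (0.393 to 0.904), had an interval that spanned 1 in the library labelled treated.

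Cells were also placed at 8 positions by their angle in the plane of the 2 scores, which uses no phase boundary. Positions 1 and 2 hold cells low in both scores, position 4 cells high in S and low in G2/M, positions 5 and 6 cells high in both, and positions 7 and 8 cells high in G2/M. SOX3 was highest at position 2, with 60.05 CPM in cells labelled treated and 72.0 CPM in cells labelled untreated, and lowest at position 8, with 11.1 and 17.8 CPM. NHLH1 was highest at position 1, with 353.8 and 233.0 CPM. It was lowest at position 6 in the library labelled treated, with 99.1 CPM, and at position 4 in the library labelled untreated, with 58.5 CPM. SOX2 was highest at position 1 and lowest at position 4 in both libraries, with 203.0 and 79.9 CPM in cells labelled treated and 215.5 and 46.3 CPM in cells labelled untreated. At position 1 the 2 libraries had like levels of SOX2, and from position 2 on the library labelled treated was higher throughout. HES6 was near its lowest at positions 4 and 5 in both, with 2949 and 3007 CPM in cells labelled treated and 2929 and 2928 CPM in cells labelled untreated, and it had 4770 and 5432 CPM at position 8. The HES6 trough was thus of almost the same level in the 2 libraries, while its crest differed, with 5219 CPM at position 1 in cells labelled treated and 5883 CPM at position 2 in cells labelled untreated.

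**Figure D2:**
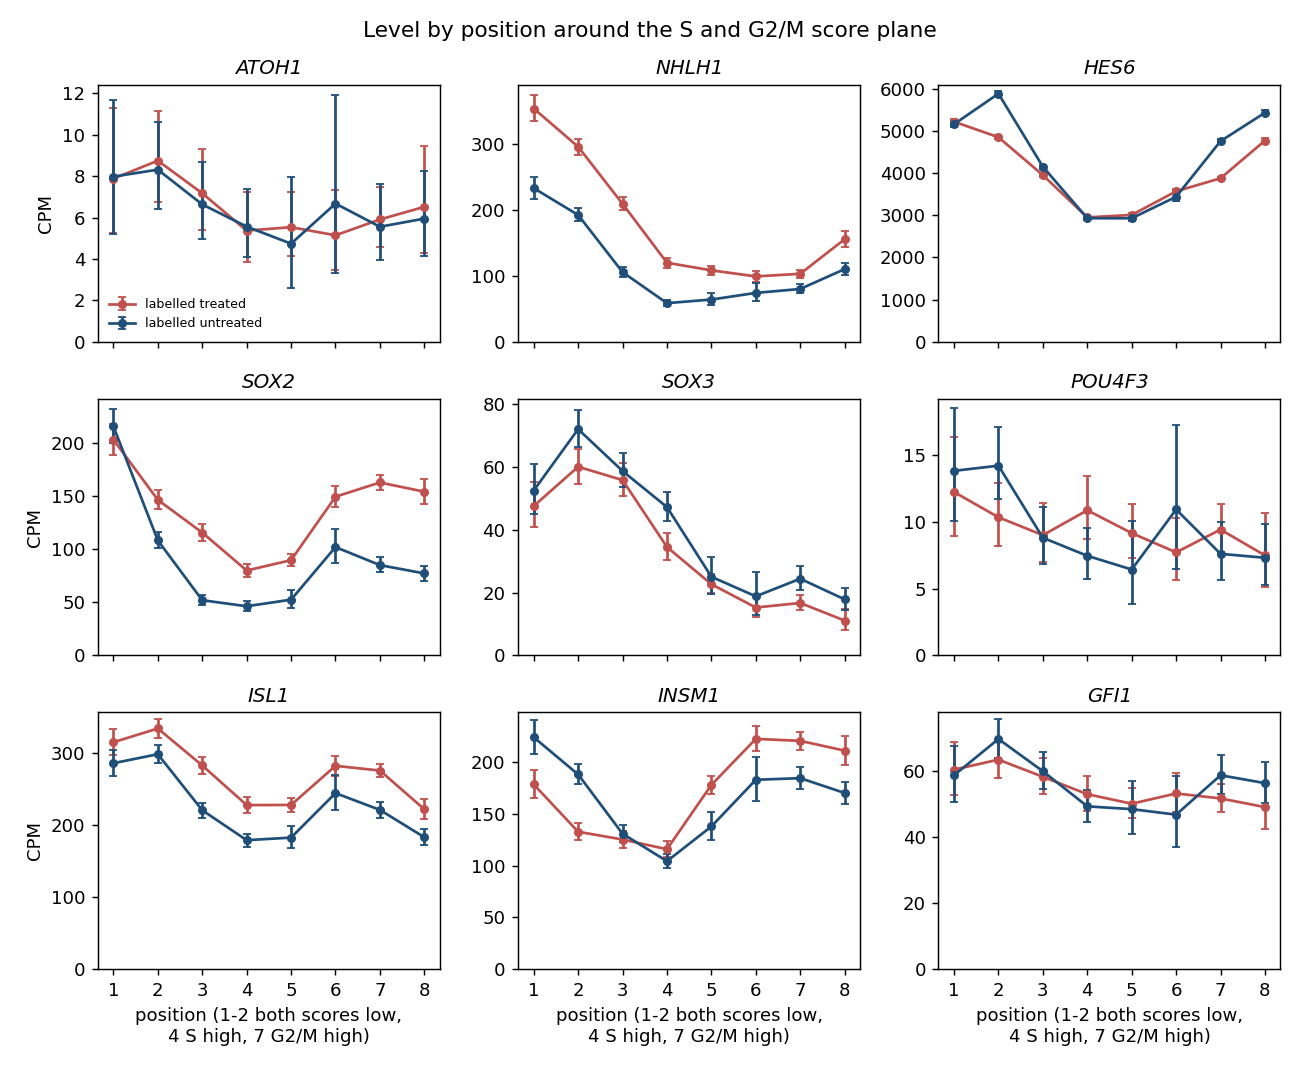
CPM of the 9 factors with at least 100 UMIs at 8 positions around the plane of the S and G2/M scores, in the library labelled treated and the library labelled untreated; bars are exact 95% intervals for counting error, and each panel has its own linear axis from 0. SOX3 declined to 11.1 and 17.8 CPM at position 8, whereas SOX2, INSM1 and HES6 had a trough near position 4 and were higher again beyond it.

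Setting cells of the same phase beside each other showed which differences were found in all 3 phases. SOX2 did not differ beyond counting error in G1 cells, with a labelled treated to labelled untreated ratio of 0.919 (0.814 to 1.04), and was higher in the library labelled treated in S cells, 1.61 (1.51 to 1.71), and in G2/M cells, 1.78 (1.68 to 1.89). INSM1 was lower in the library labelled treated in G1 cells, 0.625 (0.554 to 0.704), close to level in S cells, 0.974 (0.930 to 1.02), and higher in G2/M cells, 1.25 (1.19 to 1.30). The near-equal INSM1 level of the whole libraries therefore hid phase-wise ratios on opposite sides of 1, and with the 3 phases weighted equally its log2 ratio was -0.15 in place of 0.11.

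NHLH1 was higher in the library labelled treated in all 3 phases, with ratios of 1.42, 1.72 and 1.30 in G1, S and G2/M cells. SOX3 was lower in all 3, with 0.759, 0.816 and 0.753, as was HES6, with 0.878, 0.907 and 0.827. By position, HES6 was lower in the library labelled treated at positions 2, 3, 7 and 8 only. At position 1 it had 5219 CPM in cells labelled treated and 5160 CPM in cells labelled untreated, and at position 6 it had 3568 and 3438 CPM. For ISL1 the ratios were 1.05, 1.19 and 1.29, the first with an interval of 0.963 to 1.15. GFI1, ATOH1 and POU4F3 had intervals that included 1 in every phase. The median depth was lower in the library labelled treated in each phase, at 6869, 8527 and 10509 UMIs per cell, against 7974.5, 10968 and 13970 in the library labelled untreated, and its part in these ratios was not tested.

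**Figure D3:**
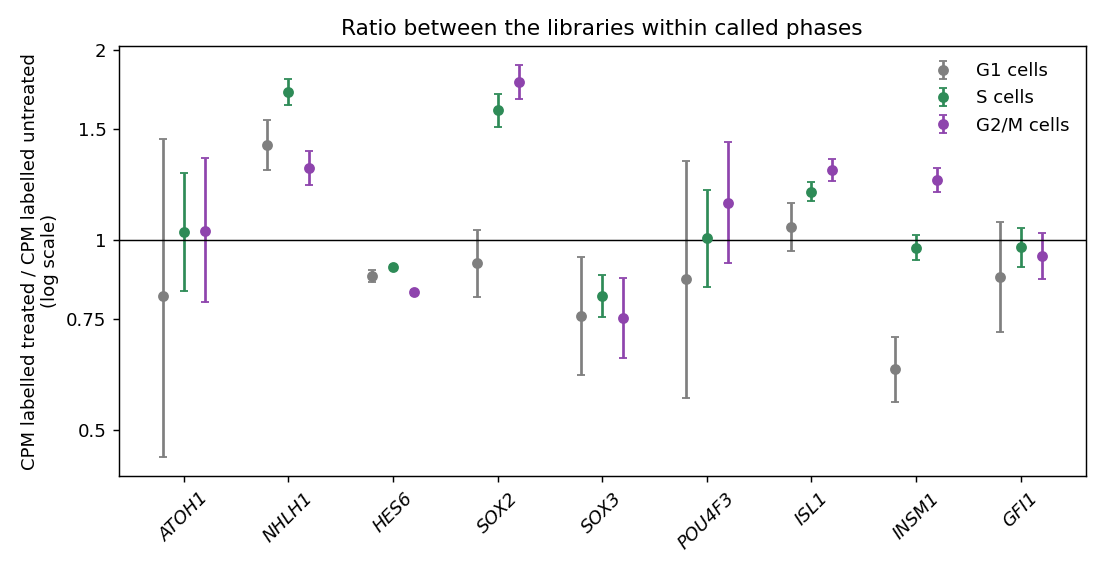
Ratio of CPM in the library labelled treated to CPM in the library labelled untreated within cells called G1, S and G2/M, for the 9 factors with at least 100 UMIs; the axis is logarithmic and bars are exact 95% intervals for counting error. INSM1 runs from 0.625 in G1 to 1.25 in G2/M cells and SOX2 from 0.919 to 1.78, whereas SOX3 and HES6 stay below 1 and NHLH1 above 1 in all 3 phases.

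Whether the factors share cells was asked with Pearson's r of log counts over thinned cells, given as a description with no p; the cells of a library share its preparation, and thinning gave them 1 depth. The relations were weak. Among 36 pairs of the 9 factors with at least 500 UMIs, 9 pairs had r of at least 0.05 in both libraries, where 0.652% of all 87444 pairs of a factor with another gene did. Among the 7 factors with at least 3000 UMIs it was 9 of 21 pairs, against 1.81% of pairs with genes of at least 3000 UMIs, a set chosen after the values were seen. After the S and G2/M scores were regressed out 7 of the 36 pairs were left, against 0.119% of all pairs, or 7 of 21 against 0.343% at 3000 UMIs. The lowest r of any pair was -0.013 in the library labelled treated and -0.0078 in the library labelled untreated over all thinned cells. With the scores regressed out the lowest was -0.017 (NHLH1 and POU4F3) and -0.066 (HES6 and SOX2).

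HES6 and NHLH1 had the highest r of all pairs, 0.223 in the library labelled treated and 0.120 in the library labelled untreated. With the cycle scores regressed out it was 0.139, still the highest, in the library labelled treated and 0.060 in the library labelled untreated, where HES6 and SOX3 had the highest at 0.093. NHLH1 was found in 57.4% (55.6 to 59.2) of cells above the median of HES6 and 41.0% (39.3 to 42.8) of the others in the library labelled treated. The shares were 40.6% (38.3 to 42.9) and 30.8% (28.8 to 32.8) in the library labelled untreated. With cells ranked on HES6 UMIs and split into 4 bins of equal size, low to high, the share with NHLH1 was 38.1, 43.3, 52.2 and 62.2% in the library labelled treated and 27.3, 34.5, 34.9 and 44.7% in the library labelled untreated. Detection of NHLH1 thus increased with HES6 in both libraries. By phase the relation was strongest in S cells, with r of 0.273 and 0.162, against 0.122 and 0.029 in G1 and 0.116 and 0.067 in G2/M cells.

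ISL1 and INSM1 followed HES6 as well over all thinned cells. ISL1 was found in 60.5% of cells in the lowest and 72.0% in the highest bin of HES6 in the library labelled treated, and in 54.4% and 61.9% in the library labelled untreated. INSM1 was found in 44.8% and 53.9% in the library labelled treated, and in 40.9% and 54.4% in the library labelled untreated. In G1, S and G2/M cells the r of HES6 with INSM1 was 0.050, 0.079 and 0.040 labelled treated, and -0.093, 0.148 and 0.097 labelled untreated. For HES6 with ISL1 it was 0.069, 0.190 and 0.012, and 0.091, 0.098 and 0.057. ISL1 was found in 75.4% of G1 cells labelled treated above the median of HES6 and 76.0% of the others. For SOX2 the libraries differed: 30.7% of cells in the lowest and 44.0% in the highest bin had SOX2 in the library labelled treated, against 25.8% and 25.4% in the library labelled untreated, and r was 0.127 and -0.01. With the scores regressed out it was 0.083 and -0.066. By phase it was 0.068, 0.136 and 0.094 in G1, S and G2/M cells labelled treated, and -0.212, 0.023 and -0.026 in those labelled untreated. In G1 cells SOX2 was found in 49.1% (41.4 to 56.9) of cells above the median of HES6 and 42.2% (35.1 to 49.5) of the others in the library labelled treated, and in 32.8% (26.2 to 39.99) and 53.4% (46.1 to 60.7) in the library labelled untreated. Among G1 cells labelled untreated SOX2 was thus found less often where HES6 was high, and the difference between the libraries has no replicate check.

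**Figure D4:**
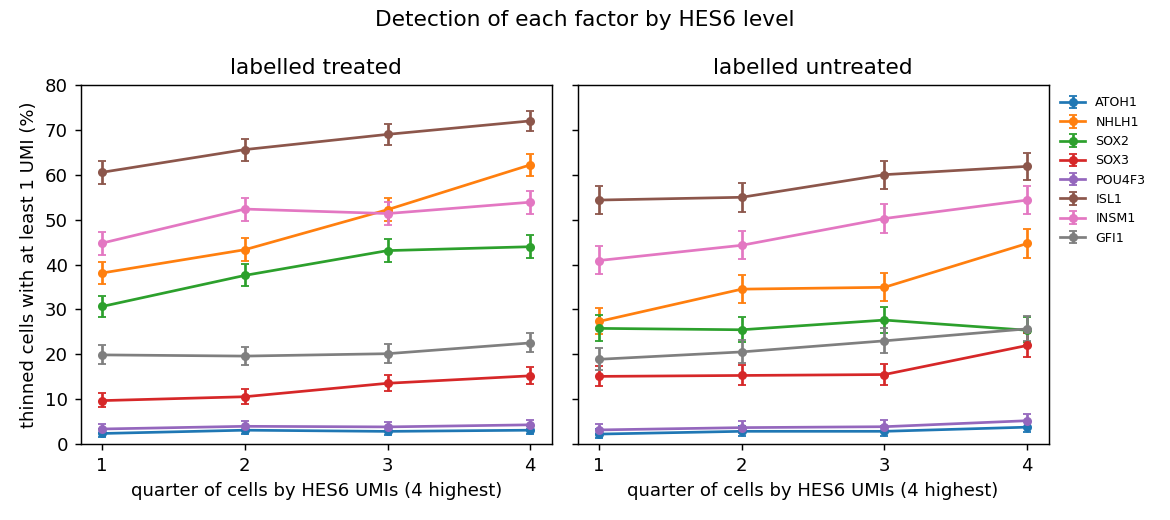
Share of thinned cells with at least 1 UMI of each factor in 4 bins of equal size of cells ranked on HES6 UMIs, in the library labelled treated (left) and the library labelled untreated (right); bars are exact 95% intervals for counting error. NHLH1 runs from 38.1 to 62.2% and from 27.3 to 44.7% in the 2 panels, and SOX2 from 30.7 to 44.0% on the left and from 25.8 to 25.4% on the right.

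Over all thinned cells SOX2 and SOX3 had no relation that could be seen at this depth, with r of 0.021 in the library labelled treated and -0.001 in the library labelled untreated. By phase r was -0.036, 0.049 and 0.036 in G1, S and G2/M cells labelled treated. In those labelled untreated it was -0.143, 0.013 and 0.065, so the sign differed between phases. SOX3 was found in 12.6% of cells with SOX2 and 12.1% of cells without it in the library labelled treated, and in 17.2% and 16.9% in the library labelled untreated. SOX2 did go with NHLH1 over all thinned cells. It was found in 41.0% of cells with NHLH1 and 36.8% without in the library labelled treated, and in 29.9% and 24.0% in the library labelled untreated. The r of SOX2 with NHLH1 was 0.036, 0.105 and 0.056 in G1, S and G2/M cells labelled treated. In those labelled untreated it was 0.064, 0.107 and 0.003. Among G1 cells labelled treated SOX2 was found in 45.1% of cells with NHLH1 and 46.5% without, and among those labelled untreated in 46.0% and 39.5%. INSM1 was found in 54.0% of cells with SOX2 and 48.5% without in the library labelled treated, and in 51.7% and 46.0% in the library labelled untreated. NHLH1 and INSM1 had r of 0.104 in the library labelled untreated but 0.004 in the library labelled treated. Once the scores were regressed out, their r was 0.079 for cells labelled untreated and 0.045 for cells labelled treated, a smaller gap. Among G1, S and G2/M cells labelled treated their r was 0.091, 0.048 and 0.007. The same phases of cells labelled untreated gave 0.118, 0.148 and -0.017. Within cells called G2/M 1 of the 36 pairs had r of at least 0.05 in both libraries, against 6 within G1 cells and 9 within S cells. The share of all gene pairs within a phase was not computed, so these counts have no background.

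**Figure D5:**
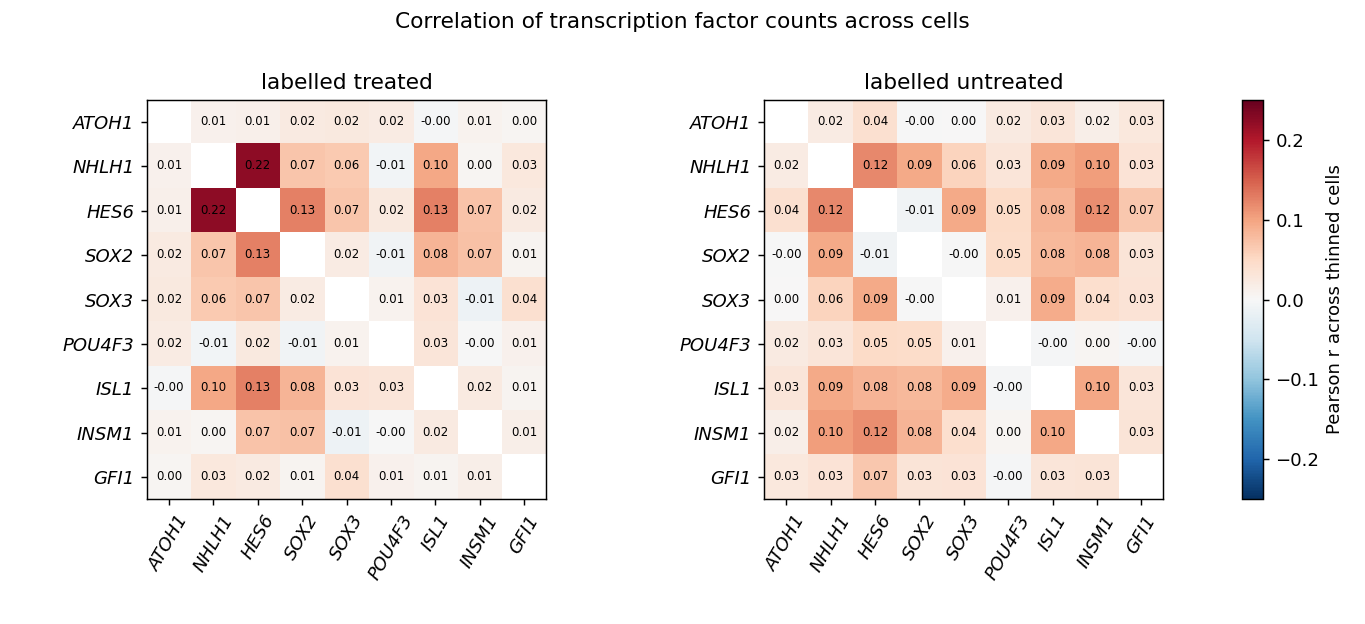
Pearson's r of log thinned counts over cells for each pair of the 9 factors with at least 500 UMIs, in 6012 cells labelled treated (left) and 3892 cells labelled untreated (right), on a colour scale that runs from -0.25 to 0.25. HES6 with NHLH1 has the highest r in both panels, 0.22 and 0.12, and the lowest r of the panels is -0.013 and -0.0078.

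Leaving out HES6 and NEUROD1, a thinned cell had UMIs of 2.45 of the other 8 factors on average in the library labelled treated and of 2.13 in the library labelled untreated. At most 1 of the 8 was found in 22.3% and 33.3% of cells, 5 or more in 5.09% and 3.52%, and never all 8. The mean number was 2.96, 2.40 and 2.43 in G1, S and G2/M cells labelled treated, and 2.79, 2.06 and 2.04 in those labelled untreated. SOX2, ISL1, INSM1 and NHLH1 were all found in 484 cells, or 8.05% (7.37 to 8.77), of the library labelled treated, where the product of the 4 separate shares is 6.43%. In the library labelled untreated all 4 were found in 163 cells, or 4.19% (3.58 to 4.87), where the product is 2.53%. The 4 factors were therefore found together more often than their separate shares would give, in both libraries. These 4 were the most often detected of the 8 and hold pairs already seen together above, so the count is no separate support. The product pools all phases, which differ in detection, and the part of phase was not tested.

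The genes most like each factor across cells of the library labelled untreated overlapped between factors. GADD45G, a growth arrest and DNA damage family gene, was among the 3 genes with the highest r for NHLH1 (0.171), HES6 (0.200), SOX3 (0.125), ISL1 (0.136) and INSM1 (0.163). In the library labelled treated the r of GADD45G with these 5 was 0.076, 0.140, 0.020, 0.034 and 0.035, lower for each; these genes were chosen for their r in the library labelled untreated, so a lower value in the other library is in part set by that choice. H1F0, the linker histone of slowly dividing and differentiated cells, was among the 3 for NHLH1, ISL1 and INSM1, with r of 0.169, 0.134 and 0.179, against 0.018, 0.039 and 0.060 in the library labelled treated. KIF19, a kinesin, was nearest to HES6 in the library labelled untreated, and FTL, the ferritin light chain, to NHLH1. KIF19 had r of 0.211 in the library labelled treated and 0.237 in the library labelled untreated, and FTL 0.247 and 0.178. With the cycle scores regressed out KIF19 had 0.144 and 0.192, and FTL 0.114 and 0.088. TMSB4X, which encodes an actin-binding peptide, had a higher r with HES6 in the library labelled treated, at 0.239. HMGB1, a chromatin protein and the nearest to SOX2 in the library labelled untreated, had r of 0.053 and 0.184. For ATOH1, POU4F3 and GFI1 the highest r of any gene in the library labelled untreated was 0.080, 0.081 and 0.067.

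Genes of proliferation and secretion were set beside the factors. MKI67, the proliferation antigen, had r of -0.202 in the library labelled treated and -0.116 in the library labelled untreated with NHLH1, and of -0.102 and -0.080 with SOX3. With INSM1 it was 0.121 and 0.000. After the cycle scores were regressed out, MKI67 had r of -0.015 and 0.0096 with NHLH1 and 0.0064 and 0.012 with SOX3. With INSM1 it then had 0.018 and 0.0007. PCNA, which marks S phase, had r of -0.215 and -0.144 with HES6, and of -0.071 and -0.0045 with the scores regressed out. MKI67 is among the G2/M genes and PCNA among the S phase genes from which these scores were built. Regressing out the scores therefore weakens the r of MKI67 and PCNA by construction, and nothing is concluded from their weaker values. CHGA, the secretory granule protein chromogranin A, was inversely related to INSM1, with r of -0.141 and -0.115, and to HES6, with -0.119 and -0.106. Regressing out the scores left -0.068 and -0.090 with INSM1, and -0.101 and -0.071 with HES6. KRT20, the keratin used to recognise Merkel cell carcinoma, had r between -0.07 and 0.05 with every factor in both libraries. DLL3, a Notch ligand that acts inside the cell and is abundant in neuroendocrine tumours, went with HES6, with r of 0.122 and 0.096. That r was 0.071 and 0.054 with the scores regressed out.

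Several ID and HES family opponents of the proneural factors had lower levels in cells labelled treated. Over the whole libraries the E proteins, their dimer partners, did not. With a minimum of 50 UMIs, 19 genes of a list of E proteins, ID proteins, HES and HEY repressors and TLE corepressors were measured, of which 0 were higher by 1.5-fold or more and 9 lower in the library labelled treated, where 3.77% of all 13958 genes were higher and 14.9% lower, and the list's median log2 ratio was -0.49 against -0.02 for all genes. The 9 were ID1, ID3, HES1, HES4, HES7, HEY1, HEY2, TLE2 and TLE4, with no E protein among them. The E proteins TCF3, TCF4 and TCF12 had ratios of 1.14 (1.07 to 1.22), 1.09 (1.04 to 1.14) and 1.22 (1.12 to 1.33). By phase the TCF4 ratio was 0.811 (0.667 to 0.985) in G1, 1.22 (1.14 to 1.31) in S and 0.969 (0.911 to 1.03) in G2/M cells. HES1, the Notch effector that represses proneural genes, had 3.89 CPM in the library labelled treated and 22.4 CPM in the library labelled untreated, a ratio of 0.173 (0.150 to 0.200). ID3 had 71.7 and 207.9 CPM, a ratio of 0.345, and HES7 0.116 and 1.87 CPM, a ratio of 0.062. ID1 had 145.4 CPM in the library labelled treated and 371.9 CPM in the library labelled untreated. The gap in ID1 was widest in G1 cells, with a ratio of 0.153, against 0.332 in S and 0.731 in G2/M cells, while the HES1 ratio was 0.107, 0.186 and 0.220. ID1 was also related to HES6 in the library labelled untreated, with r of 0.136, and not in the library labelled treated, with 0.004. With INSM1, SOX2, NHLH1, ISL1 and GFI1 the r of ID1 was 0.094, 0.084, 0.068, 0.052 and 0.051 in the library labelled untreated. In the library labelled treated it was 0.026, -0.016, -0.0053, -0.015 and 0.0082. With SOX3, ATOH1 and POU4F3 it was 0.038 or less in both libraries. The count rests in part on low genes: with 0.1 counts per 10000 added in both libraries 3 of the 19 were lower in place of 9. HES4 was not low, with 87.2 and 132.8 CPM, but its ratio of 0.656 lay close to the 1.5-fold limit.

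Of 18 measured Notch ligands, receptors and modifiers, 1 was higher and 3 lower in the library labelled treated. The receptor NOTCH4 had 7.55 and 4.76 CPM, a ratio of 1.58 (1.35 to 1.87). The ligand DLL1 had 0.166 and 1.16 CPM, the receptor NOTCH1 1.05 and 2.39 CPM, and the coactivator MAML2 1.83 and 2.99 CPM. The list's median log2 ratio was -0.002, close to that of all genes, and its shares were near the background.

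Of 33 measured other neuronal and neuroendocrine factors, 1 was higher and 10 lower, where 3.77% of all genes with at least 50 UMIs were higher and 14.9% lower. With the pseudocount of 0.1 per 10000 it was 0 and 1. FEV, an ETS factor of serotonergic cells, had 122.1 CPM in the library labelled treated and 78.1 CPM in the library labelled untreated, a ratio of 1.56 (1.502 to 1.628), like that of SOX2. GATA2 had 0.233 and 1.95 CPM, ATOH8 0.964 and 4.19 CPM, and POU3F1 5.39 and 15.6 CPM. None of the 10 lower genes was above 15.6 CPM in either library, and the list's median log2 ratio was -0.08.

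None of 12 measured LSD1-CoREST cofactors, through which INSM1 and GFI1 act, and none of 9 measured LIM-homeodomain partners, which bind ISL1, was 1.5-fold different, with median log2 ratios of 0.01 and -0.03. Of 30 measured Merkel cell and neuroendocrine effector genes, 0 were higher and 6 lower, with a median of -0.24. Against the 14.9% of all genes that were lower, that count does not set the list apart. VIP, a neuropeptide, had 1.30 CPM in the library labelled treated and 7.05 CPM in the library labelled untreated. KRT19 had 332.2 and 638.9 CPM, and KRT18 had 190.9 and 363.8 CPM, both simple-epithelium keratins of Merkel cells. The cell cycle lists stood the other way, with 4 of 41 S phase genes and 5 of 54 G2/M genes higher, against 3.77% of all genes, 0 lower and medians of 0.18 and 0.30, and their part in the differences between the libraries was not tested.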

How the data were processed

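WaGa cells under domatinostat and without treatment gave 1 library each on the 10x Genomics 3′ Chromium platform, per the labels' protocols. Cell Ranger, Seurat and hg19 are named without versions, per the submitters' processing notes. For the annotation and cell filters, nothing is given in the sources used here. Both libraries were deposited by the authors as 1 table on a natural log scale, holding the natural log of 1 plus counts per 10000 UMIs of the cell: each cell summed to 10000 after back-transformation. UMIs were recovered by taking the smallest value of each cell as 1 UMI, and 100% of values were then whole within 1e-06. Cells were assigned by the word in their names, and 0 columns were left over. No filter on cells was added and doublets were not called.

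UMIs were summed per library and divided by all its UMIs (CPM). Ratios have exact Clopper-Pearson intervals, level intervals are exact Poisson ones, and with 1 library per group there was no test. A call needed a 1.5-fold ratio and 100 UMIs, or 50 for gene lists. Phases were called with scanpy 1.11.5 on thinned cells from 41 S and 54 G2/M genes. Pearson's r used the log of 1 plus thinned counts. The calculation was tested on simulated data. Python 3.11.15, numpy 2.4.6, scipy 1.17.1 and pandas 2.3.3 were used. Promoter windows came from RefSeq on GRCh38.p14 and share no coordinates with the expression values.

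The factors, lists and alternatives were chosen with earlier results of these data known. Named genes were the 10 factors, the 3 genes nearest each by r in the library labelled untreated, up to 3 genes at each end of each list, and 11 genes set by name, of which DLL1 had too few UMIs for r. Marker genes, E proteins and other members of lists that are named were picked after their values were seen. Alternatives changed scaling, weighting of cells, pseudocount, UMI minimum, cells used, phase calls and thinning depth.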

Additional observations from a re-analysis of the deposited data

Results flagged for a closer look

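INSM1 stood out because its G2/M to G1 ratio lay on opposite sides of 1 in the 2 libraries: 1.40 in the library labelled treated and 0.704 in the library labelled untreated. This difference between the libraries was not tested, since each condition had 1 library. The ratio of INSM1 in the library labelled treated moved with the calling of phases, with a log2 value of 0.32 in place of 0.49 when phases were called at the median depth.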

How the results depend on the processing

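Of the counts that answer a comparison, 64 recomputed values stayed within 1.5 times the main count and 12 moved; of the values of single factors, 125 stayed within their counting interval and 18 moved. The count of factors at least 1.5-fold higher was 0 in place of 1 with each cell weighted equally, with the 3 phases weighted equally and at 2-fold. Within cells called G2/M, 1 pair of factors had r of at least 0.05 in both libraries in place of 9. With a pseudocount of 0.1 per 10000, the other neuronal and neuroendocrine factors gave 0 higher and 1 lower in place of 1 and 10, the E protein, ID and HES list gave 3 lower in place of 9, and the Notch list gave 0 higher and 0 lower in place of 1 and 3; a pseudocount pulls low genes toward a ratio of 1 by construction. With the 3 phases weighted equally the Notch list gave 5 lower in place of 3, the LSD1-CoREST list 1 higher in place of 0 and the LIM partner list 1 lower in place of 0; the cause was not tested. SOX2 differed by 19.0 percentage points of cells in place of 12.8, NHLH1 by 11.3 in place of 13.6, SOX3 by -7.69 in place of -4.71 and HES6 by 0.035 in place of 0.233, when cells were thinned to 8578 UMIs. POU4F3 lost its G2/M to G1 call in the library labelled treated with each library scored alone, a log2 ratio of -0.52, and at the median depth, -0.46, where ATOH1 gained one at -0.72. NEUROD1 gave no value without its 10 richest cells. No paired analysis was possible because each condition had 1 library, and for that reason no library could be left out. Regressing out the scores and the 3000 UMI minimum were chosen after seeing the data. Depth limits ATOH1, POU4F3 and NEUROD1 the most.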
